A study of Homo sapiens with 4 samples.

Results

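The members were 10 genes that androgens induce and whose products work inside the cell or in its membrane, in signalling and in transcription: FKBP5, SGK1, TSC22D3, PMEPA1, ZBTB10, MPHOSPH9, ABCC4, CAMKK2, ELL2 and EAF2. They were taken by name, with every probe set annotated to them, which gave 16 probe sets for 10 of the 11963 genes named on the array. A probe set is a group of short probes that together measure 1 transcript or several transcripts of a gene. Of the 16 probe sets, 14 reached a signal of 20 on at least 1 array and were measured, so that all 10 genes had a value. The other 2, 1 of CAMKK2 and 1 of ELL2, lay under that signal on all 4 arrays.

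Gene expression was measured in the prostate cancer line LAPC4, whose growth responds to androgen, with 4 Affymetrix U133 arrays that cross serum with vector. Control cells are labelled as infected with GFP, and the other cells with an shRNA against both β-TrCP genes, which encode substrate-binding subunits of an SCF ubiquitin ligase. Cells grew for 72 hours in medium with 10% fetal calf serum (FCS) and 100 pM methyltrienolone, a synthetic androgen, or in medium with 10% charcoal stripped serum (CSS), from which steroids are depleted. The paper describes an shRNA vector induced with doxycycline and is not uniform on the control, which its methods give as the vector alone and its account of the arrays as shRNA-infected cells left untreated. The labels do not mention doxycycline, so that effects of doxycycline, of the vector and of the knockdown cannot be told apart here, nor can those of methyltrienolone and of the other steroids that charcoal removes. With 1 array per condition, a difference between 2 arrays has no replicate and no p-value, and fewer cells expressing a gene and less RNA per cell cannot be told apart. The number of arrays limits the precision. The "local spread" given beside a change is a robust SD (scaled median absolute deviation) taken from the 1000 probe sets of nearest brightness, and describes how far such probe sets differed between the same 2 arrays.

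The combined-treatment array differed most from the others. Across all probe sets its Pearson correlation with the other arrays was 0.946 to 0.948, whereas among the remaining arrays it was 0.985 to 0.992. Over all genes the log2 changes had a robust SD of 0.229 with CSS alone, 0.237 with the shRNA alone and 0.587 with both. As deposited, the log2 values of the combined array had an interquartile range of 2.07, beside 2.69 to 2.74 on the other arrays. On the combined array 35.0% of probe sets lay under the log2 floor of 4.32, beside 41.7% to 42.0% on the others. The part of this narrower range in the combined changes was not tested. The targeted gene FBXW11 (β-TrCP2) had a log2 change of -3.00 with the shRNA in FCS and of -3.33 with both, and its second probe set of -1.34 and -1.31. BTRC (β-TrCP1) was dim, with log2 signals of 4.50 and 4.64 in the control arrays and the floor of 4.32 on both shRNA arrays. Luminal epithelial markers were bright on all arrays, with log2 signals from 8.02 to 11.60 over 7 measured of 9. Fibroblast markers had 4 measured genes of 6, with 3 at the floor on 3 arrays, and their summed signal was 91.9 to 94.3 on the other arrays and 130 on the combined one. Of the leukocyte markers 2 of 6 were measured, and their sum was 40.0 on the other arrays and 51.6 on the combined one. Of the endothelial markers 1 of 4 was measured, at the floor throughout. The part of such signals in the results was not tested.

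The androgen receptor and the glucocorticoid receptor are steroid-activated transcription factors of the same family, and they bind closely related DNA elements built from 2 hexamers. Several genes therefore respond to either hormone, depending on which receptor a cell holds. FKBP5, SGK1 and TSC22D3 are standard examples: FKBP5 encodes a co-chaperone of steroid receptors that lowers hormone binding, SGK1 a kinase of the PI3K pathway that acts on ion transport and survival, and TSC22D3 (GILZ) a leucine zipper protein with anti-inflammatory effects of glucocorticoids. Among the other members, EAF2 and ELL2 act on transcription elongation by RNA polymerase II, PMEPA1 dampens TGF-β signalling, CAMKK2 is a kinase upstream of AMPK, and ABCC4 exports organic anions and cyclic nucleotides.

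The RefSeq promoter table (GRCh38.p14) held start sites for 8 of the members, with 17 windows, and no entry was used for ZBTB10 and ELL2. The 250 bases before each start were searched on both strands for the hexamer AGAACA, whose reverse complement is TGTTCT, and for the inverted repeat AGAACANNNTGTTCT, the consensus of both receptors, which contains the hexamer on either side. The hexamer was present in 12.4% of all 35116 windows of the table and the repeat in 0.00285%. Among the members 1 window of 17 held the hexamer, at a PMEPA1 start, with its first base at position -229 from that start, and 0 of 17 held the repeat, which says only that these letters are not in these windows. The windows of the outermost listed start of the 3 genes shared with the glucocorticoid receptor are shown because their changes below went different ways, and that of PMEPA1 because it carried the match. Capitals mark the hexamer, and each is written 5′ to 3′ on the minus strand, at chr6:35728584-35728833 (FKBP5), chr6:134318113-134318362 (SGK1), chrX:107775989-107776238 (TSC22D3) and chr20:57710578-57710827 (PMEPA1). Which start the LAPC4 transcripts used was not measured.
FKBP5: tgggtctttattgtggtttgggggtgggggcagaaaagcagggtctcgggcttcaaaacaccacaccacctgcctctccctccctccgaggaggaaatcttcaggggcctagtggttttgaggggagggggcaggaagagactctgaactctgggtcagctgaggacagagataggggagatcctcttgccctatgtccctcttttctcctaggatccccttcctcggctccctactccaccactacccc
SGK1: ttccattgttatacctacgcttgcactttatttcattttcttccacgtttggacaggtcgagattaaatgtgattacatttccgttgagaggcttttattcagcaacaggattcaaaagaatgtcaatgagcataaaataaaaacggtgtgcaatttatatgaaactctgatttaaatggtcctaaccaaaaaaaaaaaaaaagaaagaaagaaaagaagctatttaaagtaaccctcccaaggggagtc
TSC22D3: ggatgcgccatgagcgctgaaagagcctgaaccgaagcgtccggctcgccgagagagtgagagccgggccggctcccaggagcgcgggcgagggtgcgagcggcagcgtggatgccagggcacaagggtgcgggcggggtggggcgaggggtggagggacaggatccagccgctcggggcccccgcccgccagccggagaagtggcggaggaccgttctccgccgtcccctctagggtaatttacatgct
PMEPA1: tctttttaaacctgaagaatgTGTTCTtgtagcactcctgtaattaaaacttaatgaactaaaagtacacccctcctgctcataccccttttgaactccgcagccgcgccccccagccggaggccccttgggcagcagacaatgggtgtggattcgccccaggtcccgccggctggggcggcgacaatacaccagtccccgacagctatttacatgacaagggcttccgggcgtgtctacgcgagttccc

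Of the 10 members 6 had their lowest signal where both treatments were combined, as did 34.3% of all genes. None reached a 2-fold change with either treatment alone, and few of all genes did. With CSS alone 7 of 10 members were lower and 3 higher than in the control in FCS, where 46.7% of all genes were lower and 53.2% higher, and 0 were at least 2-fold lower (0.138% of all genes) or higher (0.163%). With the shRNA alone 8 were lower and 2 higher, where 50.0% of all genes were lower and 49.9% higher, and again 0 were at least 2-fold lower (0.401% of all genes) or higher (0.802%). With both treatments 8 were lower and 2 higher, where 47.5% of all genes were lower and 52.5% higher. Of the members 5 were at least 2-fold lower, SGK1, MPHOSPH9, EAF2, ZBTB10 and PMEPA1 (6.91% of all genes), and 0 at least 2-fold higher (7.95%). The median log2 change of the members was -0.22 with CSS, -0.33 with the shRNA and -0.92 with both, and that of all genes 0.02, 0.00 and 0.03. These 3 comparisons share the control array in FCS. With the values as deposited the combined median was -1.13, beside -0.16 for all genes, and with a common median -0.88 beside 0.11. With a floor of 100, which leaves 5 members with a fold and 1 of them past 2-fold, it was -0.19 beside 0.00.

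**Figure D1:**
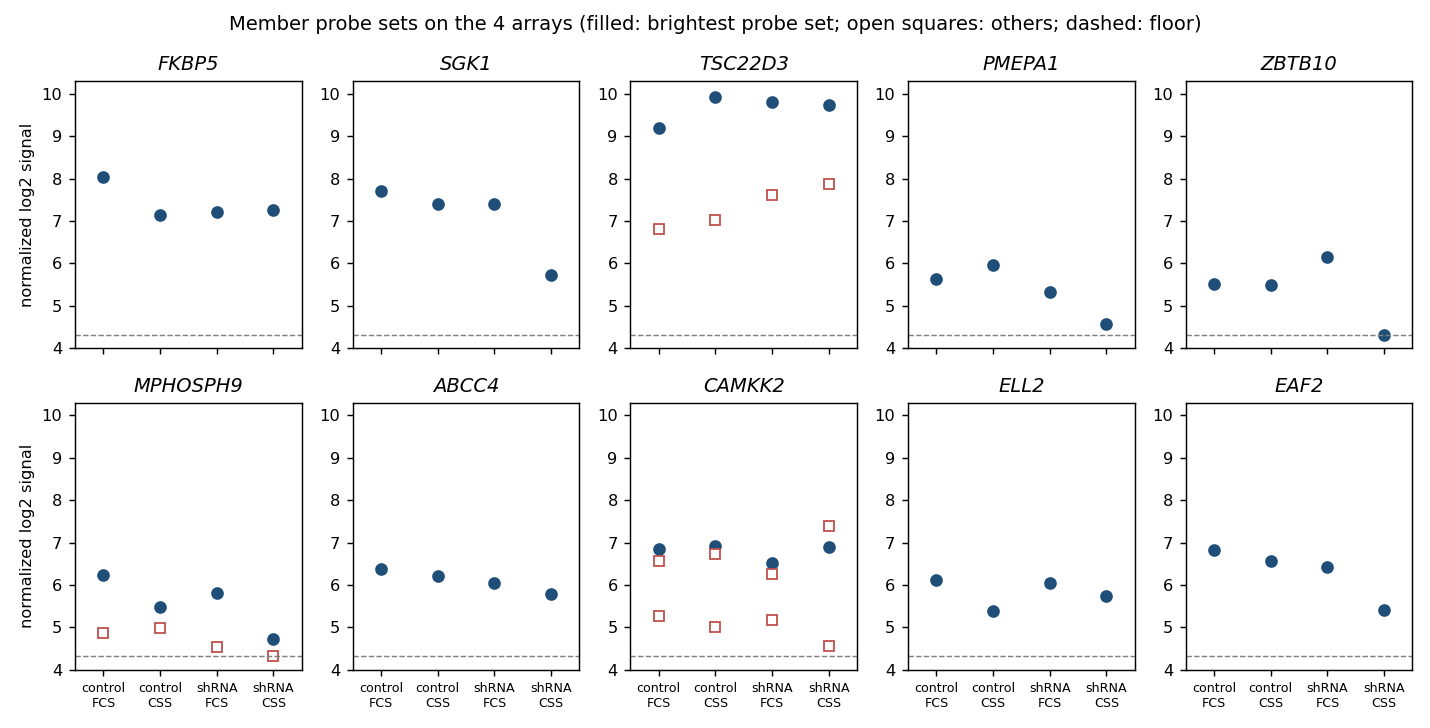
Normalized log2 signal (y axis) of the 14 measured member probe sets on the 4 arrays (x axis), with 1 array per condition and 1 panel per gene. Filled circles are the brightest probe set of a gene, open squares its other probe sets, and the dashed line is the floor of 4.32; SGK1 lies between 7.40 and 7.71 on 3 arrays and at 5.73 on the combined-treatment array, while FKBP5 is highest in the control in FCS.

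The members did not share 1 pattern. FKBP5, SGK1, MPHOSPH9, ABCC4, ELL2 and EAF2 were lower than the control in FCS on all 3 treated arrays, a pattern seen for 18.1% of all genes. TSC22D3 was higher on all 3, as were 18.6% of all genes. PMEPA1, ZBTB10 and CAMKK2 differed in sign between treatments. The combined array held the lowest signal of 6 members, SGK1, PMEPA1, ZBTB10, MPHOSPH9, ABCC4 and EAF2, and of 34.3% of all genes. FKBP5 and ELL2 were lowest in CSS alone, CAMKK2 with the shRNA alone and TSC22D3 in the untreated control. With CSS alone 4 members were lower by more than their local spread (13.9% of all genes) and 2 higher (16.6%). With the shRNA alone 6 were lower (16.5%) and 2 higher (15.3%), and with both 4 were lower (12.2%) and 1 higher (11.8%).

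**Figure D2:**
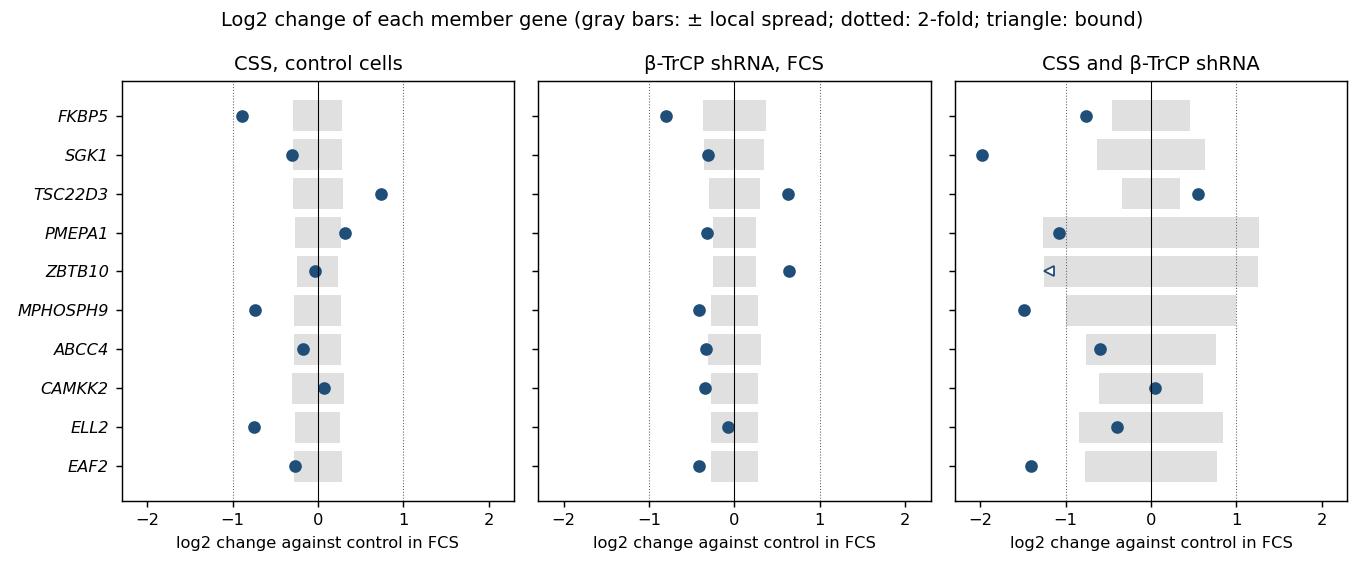
Log2 change (x axis) of each member gene (y axis) against the control in FCS, for CSS alone, β-TrCP shRNA alone and both, from 1 array each. Gray bars span the local spread on either side of 0, dotted lines mark 2-fold and the open triangle is a bound at the floor; the bars of PMEPA1 and ZBTB10 in the combined comparison reach 1.26, beyond their changes of -1.07 and at most -1.20.

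FKBP5 was lower with every treatment and by about the same amount. Its log2 signal was 8.03 in the FCS control, 7.14 in CSS, 7.22 with shRNA and 7.26 with both. The control in FCS was thus the only high array, and the combined array differed from the single treatments by 0.12 and 0.04, within local spreads of 0.48 and 0.50. FKBP5 was 1.85-fold lower in CSS (-0.88 against a local spread of 0.29), 1.75-fold lower with the shRNA (-0.80 against 0.36) and 1.70-fold lower with both (-0.76 against 0.46). Only 0.238% of all genes had a lower change in CSS and 1.04% with the shRNA, but 11.5% had one with both. The size of the combined change depended on the scaling, and it was -1.30 as deposited and -1.02 after centring the arrays on 1 median, so that the combined array then had the lowest signal. A single probe set measured FKBP5.

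SGK1 followed another course, with a small difference on either single treatment and its lowest signal when both were applied. The log2 signal was 7.71 in the FCS control, 7.41 in CSS, 7.40 with shRNA and 5.73 with both, or 210, 170, 168 and 53.2 on the linear scale. The single treatments lay close to each other and the combined array stood below all others. The log2 changes were -0.30 in CSS (local spread 0.29), -0.32 with the shRNA (0.35) and -1.98 with both (0.63), a 3.94-fold lower signal. Of all genes 0.322% had a lower combined change. The combined array was also 3.19-fold below the control in CSS and 3.17-fold below the shRNA in FCS, comparisons that share the combined array.

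Main effects were tested with limma with serum and shRNA as additive terms over the 4 arrays, which leaves 1 residual degree of freedom. Each SE came from the trend of the variance over all genes, so that a gene's own departure from additivity did not enter its SE. SGK1 fell by 0.98 ± 0.29 (SE) on the log2 scale with CSS (limma adjusted p = 0.0296) and by 0.99 ± 0.29 with the shRNA (limma adjusted p = 0.0190). It was the only member called for either effect, among 2.55% of 8858 genes called for CSS and 3.89% for the shRNA. Both calls rest on the combined array, since neither single change exceeded 1.06 times its local spread. Both were lost with the values as deposited (limma adjusted p = 0.532 and 0.440), with a floor of 100 (limma adjusted p = 0.169 and 0.158) and without the trend of the variance (limma adjusted p = 0.729 and 0.734). Over the alternatives run, the limma adjusted p of SGK1 ranged from 0.00606 to 0.729 for CSS and from 0.00350 to 0.734 for the shRNA. The other members had limma adjusted p-values of 0.0632 to 0.941 for CSS and of 0.349 to 0.976 for the shRNA.

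TSC22D3 was higher with each treatment, where FKBP5 and SGK1 were lower. Its brighter probe set had log2 signals of 9.18 in the FCS control, 9.93 in CSS, 9.82 with shRNA and 9.74 with both, so that all 3 treated arrays lay above the control and close together. This probe set was 1.67-fold higher in CSS (0.74 against a local spread of 0.30), 1.55-fold higher with the shRNA (0.63 against 0.30) and 1.47-fold higher with both (0.55 against 0.34). The second probe set, of a type whose probes can also match other transcripts, had log2 signals of 6.81, 7.02, 7.62 and 7.87 in the same order. Its log2 change was 0.21 under CSS, 0.81 under shRNA and 1.06 under both. Both were above the control in FCS on every treated array, but the first was highest in CSS and the second with both treatments. In the mean of both probe sets TSC22D3 was called for the shRNA (0.53, limma adjusted p = 0.00968), and in the brighter alone it was not (0.22, limma adjusted p = 0.349).

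The receptors and other chaperones that were measured differed in their courses. NR3C1, the glucocorticoid receptor, had log2 signals of 5.15 in the FCS control, 5.40 in CSS, 6.39 with shRNA and 5.27 with both. It was thus higher with the shRNA alone, by 1.24 against a local spread of 0.26, and a second probe set differed by 1.22, while with both treatments these 2 probe sets differed by 0.12 and -0.12. The other 2 of its 4 measured probe sets were at the floor except with the shRNA alone, where they differed by at least 0.51 and 0.24. The androgen receptor was not analysed here. Of 11 measured receptors and chaperones, 5 were higher and 6 lower in CSS (median -0.01), 10 higher and 1 lower with the shRNA (median 0.26), and 5 higher and 6 lower with both (median -0.04). NR3C2, the mineralocorticoid receptor, differed by 0.14 in CSS and by 0.15 with the shRNA. It was at the floor on the combined array alone, a change of at most -1.06 (local spread 1.17). SGTA, a co-chaperone of the androgen receptor, differed by 1.42 with both treatments.

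Glucocorticoid-induced genes outside the members went both ways. Of 14 measured, 9 were higher and 5 lower in CSS (median 0.21), 8 higher and 6 lower with the shRNA (median 0.03) and 6 higher and 8 lower with both (median -0.05). DDIT4, an inhibitor of mTORC1, was higher on all treated arrays, by 1.14, 1.40 and 1.07 in the same order. MT2A, a metallothionein, differed by -1.13 under CSS, 0.09 under shRNA and -0.58 under both. KLF9, a transcription factor of the Krüppel-like family, differed by -0.02, 0.01 and -1.40 (local spread 0.79 for the last). It thus had its low signal on the combined array alone, as SGK1 did. Secretory luminal androgen targets, such as the kallikreins, are the other large class of androgen-induced genes in the prostate. In CSS 4 of 8 with a fold were lower (median 0.01), with the shRNA 7 of 8 (median -0.69, 2 of them at least 2-fold) and with both 7 of 9 (median -0.64, 3 of them at least 2-fold). KLK2 (-1.72), HPGD (-1.70) and AZGP1 (-1.31) were those 3. In CSS alone the kallikreins were higher, KLK2 by 0.70 (local spread 0.32) and KLK3 by 0.73 (0.31). AZGP1 differed there by -0.77 (0.30) and TMPRSS2 by -0.48 (0.33). No test of the difference between these lists was made.

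**Figure D3:**
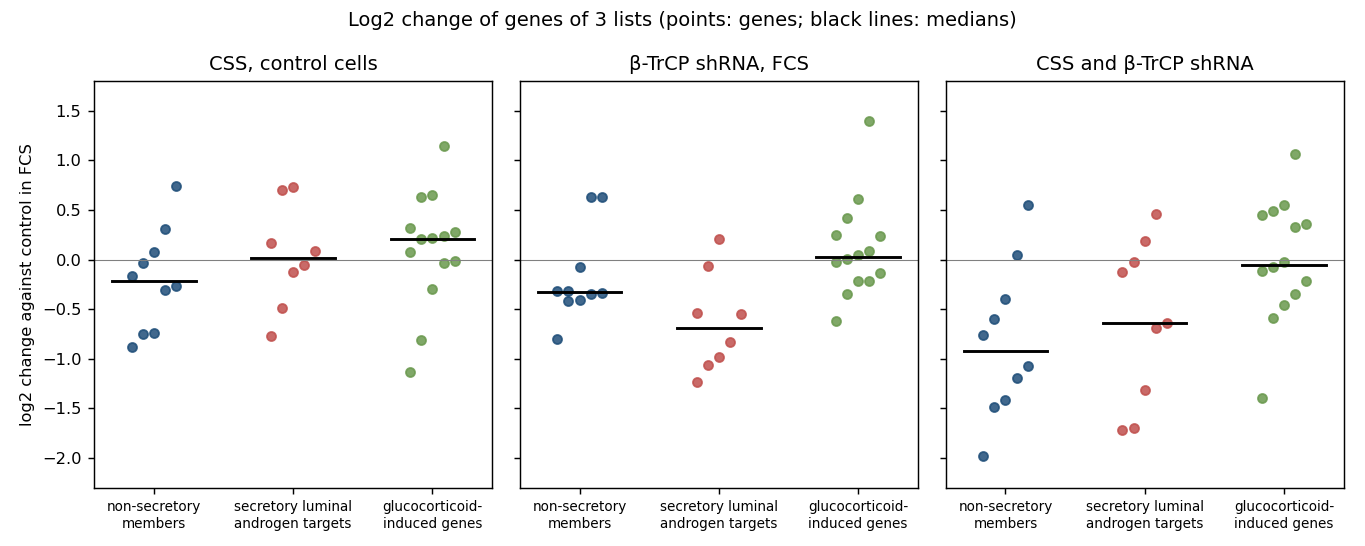
Log2 change against the control in FCS (y axis) of the member genes, of secretory luminal androgen targets and of other glucocorticoid-induced genes (x axis), for CSS alone, β-TrCP shRNA alone and both. Points are genes from 1 array per condition and black lines are medians, which are -0.92, -0.64 and -0.05 with both treatments; changes at the floor are included as bounds.

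Genes around SGK1 in its pathway had a median of 0.07 under CSS, -0.17 under shRNA and 0.22 under both, over 10, 10 and 11 genes with a fold. With the shRNA 9 of 10 were lower and 0 of them 2-fold. PDPK1, which encodes the kinase that activates SGK1, had log2 changes of -0.01 with CSS, 0.01 with the shRNA and 1.48 with both (local spread 0.63). SGK2, a paralog, was dim and differed by 1.24 with both (local spread 1.23), and GSK3B, a kinase that the pathway inhibits, by -0.63. Of the TSC22 family, TSC22D2 differed by -1.69 and TSC22D4 by 1.06 with both treatments, and the third, TSC22D1, by 0.38.

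PMEPA1 and CAMKK2 are members of signalling pathways. PMEPA1, a membrane protein that binds SMADs and the ubiquitin ligase NEDD4, had log2 signals of 5.64 in the FCS control, 5.95 in CSS, 5.32 with shRNA and 4.57 with both. It was highest in CSS and lowest on the combined array, near the floor of 4.32. The changes were 0.31 in CSS (local spread 0.27), -0.32 with the shRNA (0.25) and -1.07 with both (1.26), the last being 2.10-fold lower but within its local spread. Its 7 measured partners had medians of 0.08 under CSS, 0.08 under shRNA and -0.02 under both, and 0 of them reached 2-fold in any of these.

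CAMKK2 had 3 measured probe sets, which did not go the same way with both treatments. The brightest had log2 signals of 6.86, 6.93, 6.51 and 6.90 on the arrays in the order given above. The second had 6.57, 6.74, 6.25 and 7.39, and the dimmest 5.27, 5.00, 5.18 and 4.55. With the shRNA alone all 3 were lower, by -0.35, -0.32 and -0.09, whereas with both they differed by 0.04, 0.82 and -0.72. The direction of the brightest also depended on the scaling, and was -0.49 with the values as deposited and -0.21 after centring on 1 median. No single value for CAMKK2 on the combined array could therefore be given. Among 10 measured genes of CAMKK2 and AMPK signalling, 6 were higher and 4 lower with both (median 0.28). Of these, 4 were at least 2-fold higher, beside 7.95% of all genes. STK11 (LKB1), the other main kinase upstream of AMPK, differed by 1.76 (local spread 0.54). The AMPK subunits PRKAG2 and PRKAB1 differed by 1.14 (0.75) and 1.09 (0.93). The fourth, ACACB, which encodes an acetyl-CoA carboxylase, was at the floor in the control and differed by at least 1.75 (local spread 1.23). With CSS or the shRNA alone 0 of the list reached 2-fold, with medians of -0.11 and 0.05.

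ELL2 and EAF2, partners in transcription elongation, were lowest on different arrays. ELL2 had log2 signals of 6.13 in the FCS control, 5.38 in CSS, 6.05 with shRNA and 5.73 with both, and so was low in CSS. It was 1.68-fold lower there (-0.75 against a local spread of 0.26), and only 0.752% of all genes had a lower change. With the shRNA it differed by -0.08 and with both by -0.39 (local spread 0.85). EAF2, an androgen-induced growth suppressor, had log2 signals of 6.83, 6.57, 6.42 and 5.42 in the same order, and was lowest on the combined array. Its changes were -0.26 in CSS (local spread 0.28), -0.41 with the shRNA (0.28) and -1.41 with both (0.77), which was 2.66-fold lower. The change with both was -0.86 with a filter at 100. With a floor of 100, which the combined signal did not reach, it was at most -0.19. Of 9 measured genes of the super elongation complex and its regulators, 6 were higher and 3 lower with both (median 0.27), with medians of 0.12 in CSS and 0.10 with the shRNA. ELL, a paralog of ELL2, differed by 0.04, 0.07 and 1.20, with a local spread of 1.19 for the last, and CCNT2, a cyclin T of the complex, by at most -1.15 with both (1.25), at the floor there.

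ZBTB10, a zinc finger repressor of the specificity protein factors, was the member that was highest with the shRNA alone. Its log2 signal was 5.52 in the FCS control, 5.48 in CSS, 6.15 with shRNA and at the floor of 4.32 with both. The change with the shRNA was 0.64 (local spread 0.25), 1.55-fold higher, and that with both at most -1.20 (1.26), at least 2.29-fold lower. MPHOSPH9, a protein of centrioles, was low in CSS and lower still with both. The brighter probe set had log2 signals of 6.22, 5.48, 5.81 and 4.73, and changes of -0.74 in CSS (local spread 0.27), -0.42 with the shRNA (0.27) and -1.49 with both (0.99), a 2.81-fold lower signal. The dimmer probe set differed by 0.13 in CSS, -0.33 with the shRNA and at most -0.54 with both, so that the lower signal in CSS was not shared, and the mean of both probe sets differed by -0.31 there. ABCC4 had log2 signals of 6.38, 6.22, 6.05 and 5.78, and was highest in the control in FCS and lowest with both. Its change was -0.17 in CSS, -0.33 with the shRNA (local spread 0.31) and -0.60 with both (0.76). Of 6 measured ABCC transporters, 1 was at least 2-fold lower and 1 at least 2-fold higher with both. They were ABCC1 (-1.04) and ABCC2, which was at the floor on the other arrays (at least 1.08), and the medians were -0.08, -0.12 and 0.23.

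Whether the combined change was the sum of the single ones was described by its departure from that sum on the log2 scale, with no test, since no condition was replicated. FKBP5 lay above the sum by 0.93 (sum -1.69, both -0.76), and TSC22D3 below it by -0.82 (sum 1.38, both 0.55). With quantile normalization the combined array was no further from the control than the single treatments for FKBP5 and for the brighter probe set of TSC22D3. In the mean of both TSC22D3 probe sets it was further, with log2 changes of 0.47, 0.72 and 0.81, and the departure was -0.39. SGK1 departed by -1.36, ZBTB10 by at most -1.80, PMEPA1 by -1.07 and EAF2 by -0.74, all toward a lower signal. MPHOSPH9 (-0.33), ABCC4 (-0.10), CAMKK2 (0.32) and ELL2 (0.44) departed by less than the local spread of the combined comparison. Those of EAF2 and PMEPA1 were also within it, at 0.77 and 1.26. That spread describes the combined comparison alone, whereas a departure also takes in both single treatments. No spread of departures was computed, so that a departure beyond this spread is not thereby shown to exceed noise. The median departure was -0.53 for the members and 0.00 for all genes. It moved with the setting, and was -0.36 with the mean over probe sets, -0.07 over the 5 members left by a filter at 100 and 0.19 over those left by a floor of 100. The departure of FKBP5 was 0.37 with the values as deposited. That of SGK1 was -1.71 as deposited, -0.91 with a filter at 100 and -0.45 with a floor of 100, and that of EAF2 was 0.19 with a floor of 100.

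**Figure D4:**
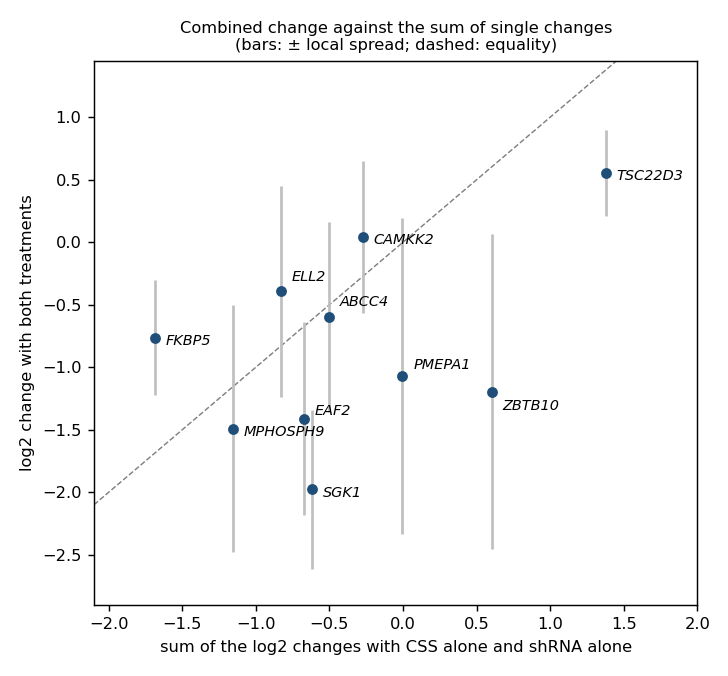
Log2 change with both treatments (y axis) against the sum of the log2 changes with CSS alone and β-TrCP shRNA alone (x axis) for the 10 member genes, from 1 array per condition. Bars are the local spread of the combined comparison, not of the departure, and the dashed line marks equality. FKBP5 lies 0.93 above the line and SGK1 departs by -1.36.

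With the shRNA set against the control in CSS, 8 members were lower and 2 higher, where 49.3% of all genes were lower and 50.5% higher, 4 were past 2-fold downward (6.73%) and 0 upward (7.77%): SGK1 by -1.67, PMEPA1 by -1.39, ZBTB10 by at most -1.16 and EAF2 by -1.15. FKBP5 differed by 0.12 and TSC22D3 by -0.19 in this comparison, both within their local spreads of 0.48 and 0.26. The mean over probe sets gave 6 members lower and 4 higher here, where 49.9% of all genes were lower. With CSS set against FCS in shRNA cells, 8 were lower and 2 higher, where 47.9% of all genes were lower and 52.0% higher, 3 were past 2-fold downward (6.64%) and 0 upward (7.90%): ZBTB10 by at most -1.83, SGK1 by -1.66 and MPHOSPH9 by -1.07. FKBP5 differed by 0.04 and TSC22D3 by -0.08 here, and the mean over probe sets gave 7 members lower and 3 higher (49.6% of all genes lower). Beyond the local spread 3 members were lower (12.1% of all genes) and 0 higher (11.4%) in the first of these comparisons, and 3 lower (11.8%) and 0 higher (12.0%) in the second. The genes whose 3 changes against the control in FCS came nearest to those of SGK1 were CSGALNACT2, DCUN1D1 and UBXN8, with root mean square differences of 0.10, 0.10 and 0.12 on the log2 scale among 6957 genes. For EAF2 they were TOR1AIP2, TINF2 and CREM (0.05 to 0.06), for MPHOSPH9 OSTF1, ALG13 and CRYZL1 (0.10 to 0.12), for PMEPA1 SHANK2, HERC2 and ELOA-AS1 (0.02 to 0.05), and for ZBTB10 KIF4A, SBNO1 and YAP1 (0.07 to 0.12). Each likeness rests on 4 arrays and on 3 changes that share 1 control. These genes were picked as the closest of 6957, so that small differences follow from the search. For ZBTB10 the combined change was a bound and was matched as if measured.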

How the data were processed

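Log2 values of 22277 probe sets on 4 arrays were deposited by the authors. The authors' methods give MAS5 signals, a minimum signal of 20 with a present call, log2 transformation and quantile normalization, and the submitters' processing notes name MAS5. The table's columns did not share a distribution and hold no present calls, so that its scaling is unknown, and the filter and quantile normalization were applied here, over the 15678 probe sets that reached 20 on any array. Lower signals were then set to 20. An annotation table gave a single gene to 19070 probe sets, more than 1 gene to 1043 and no gene to 2164. Symbols were updated by gene identifier for 19058, probe sets of several genes were left out, and the brightest stood for each of 9193 genes. A gene at the floor on 1 array has a bound, and on both no fold.

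Members and companion lists were chosen with earlier results of these data known. The genes named were the members, shRNA targets, receptors, up to 3 genes per list changed at least 2-fold, and the 3 nearest patterns of members changed 2-fold. NR3C2, TSC22D1, ACACB, ABCC2 and CCNT2 were named after their values were seen. For genes of the companion lists other than NR3C1, agreement between the probe sets of a gene was not examined. Main effects were tested with limma 3.58.1 (R 4.3.3), with a variance trend and Benjamini-Hochberg adjustment over 8858 genes. The prior degrees of freedom were infinite, so that each SE came from the trend. Tested on simulated data for the shRNA effect over 8858 genes, it recovered 40% of 2-fold and 65% of 4-fold changes, with 4 false calls. For each gene the simulated noise was alike on all 4 arrays, with no floor and no effect of CSS. These figures need not carry over to the measured arrays. The rate of false calls on the measured arrays was not tested. There the log2 changes had a robust SD of 0.587 with both treatments, beside 0.229 with CSS alone and 0.237 with the shRNA alone. Other steps used Python 3.11.15, numpy 2.4.6, pandas 2.3.3 and scipy 1.17.1. Alternatives covered normalization, floor, filter, probe set rule, fold threshold and variance trend.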

Additional observations from a re-analysis of the deposited data

Results flagged for a closer look

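The effect of CSS on PMEPA1 had opposite signs in the 2 kinds of cells, 0.31 in control cells and -0.76 in shRNA cells, a difference of -1.07 that was not tested, and the second change lay within its local spread of 1.29. The effect of the shRNA on ZBTB10 was 0.64 in FCS and at most -1.16 in CSS, a difference of -1.80 or below that was not tested, and the second change lay within its local spread of 1.30.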

How the results depend on the processing

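Of the recomputed counts and medians, 89 stayed within 1.5 times (counts) or within the local spread (medians), and 18 counts did not. That spread is a wide margin for a median: with a floor of 100 the members' median with both moved from -0.92 to -0.19, and the median departure from additivity turned from -0.53 to 0.19. With a floor of 100, members past 2-fold numbered 1 with both treatments, 0 for the shRNA in CSS and 0 for CSS in shRNA cells, and 1 in each with a filter at 100, settings that leave 4 or 5 members with a fold. Over all genes that floor left 44 lower and 58 higher of 3825 with both, 37 and 48 of 3813 for the shRNA in CSS, and 29 and 42 of 3819 for CSS in shRNA cells. The filter left 110 lower and 151 higher, 84 and 115, and 82 and 120, each of 3980. At 3-fold they numbered 1 with both and 1 for the shRNA in CSS, and at 1.5-fold 4 with CSS, 3 with the shRNA and 5 for CSS in shRNA cells. All genes were not counted at 3-fold or 1.5-fold, so these member counts have no share beside them. Members called by limma numbered 0 for the shRNA and 0 for CSS with the values as deposited, with a floor of 100 and without the trend, and 2 for the shRNA with the mean over probe sets; the cause was not tested. Over all genes limma called 226 for CSS and 345 for the shRNA, as against 23 and 43 without normalization and 73 and 161 after centring on a common median. With a floor of 100 it called 295 and 379 of 4031 genes, and with the mean over probe sets 227 and 310 of 8858. Without the trend it called 0 genes of 8858 for either effect, with 312 for CSS and 389 for the shRNA at an unadjusted p under 0.05. With the values as deposited the combined treatment gave 384 genes at least 2-fold higher and 1095 lower, as against 692 and 601. Without the combined array in the normalization, the medians were -0.23 for CSS and -0.35 for the shRNA, with 0 members past 2-fold. No paired analysis was possible because each condition has 1 array, so that no replicate could be left out either. The mean over probe sets moved MPHOSPH9 with CSS to -0.31 and turned TSC22D3 for the shRNA in CSS from -0.19 to 0.33. As deposited, FKBP5 for the shRNA in CSS turned from 0.12 to -0.42 and for CSS in shRNA cells from 0.04 to -0.51, and a common median moved CAMKK2 with both from 0.04 to -0.21. A floor of 100 gave SGK1 with both as at most -1.07 and EAF2 as at most -0.19, and a filter at 100 gave EAF2 as -0.86. Members near the floor, PMEPA1, ZBTB10 and MPHOSPH9, are limited by signal over background.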
